A study of Homo sapiens with 6 samples.

Results

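The adenomatous polyposis coli gene APC and the beta-catenin destruction complex were followed through 10 genes in 6 RNA-seq libraries of hepatic stellate cells. The members were the scaffold genes APC, AXIN1 and AXIN2, the kinase genes GSK3A, GSK3B and CSNK1A1, the beta-catenin gene CTNNB1, the nuclear partner genes TCF7L2 and LEF1, and the co-receptor gene LRP6. They were found by symbol among the 60605 table rows with an Ensembl identifier, and all 10 were found and passed the filter on low counts. The set was chosen by the measured log2 fold change of APC between the groups, known from these libraries, so the differences of the members are given as a description, without a test. Genes of the rest of the pathway were tested.

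The destruction complex is the brake of canonical Wnt signaling. APC and AXIN hold beta-catenin, CK1α (encoded by CSNK1A1) and GSK-3 (encoded by GSK3A and GSK3B) phosphorylate it, and the phosphorylated protein is ubiquitinated and degraded. When a Wnt ligand binds Frizzled and LRP6, AXIN is drawn to the membrane, beta-catenin accumulates, and in the nucleus it works with TCF and LEF proteins on target genes, of which AXIN2 is one. Truncating mutations of APC are a hallmark of colorectal cancer. In the liver, Wnt signals have been tied to the activation of hepatic stellate cells, the vitamin A storing pericytes that turn into collagen-producing myofibroblasts.

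LX-2 is an established line of human hepatic stellate cells. All libraries came from LX-2 cells kept for 24 h in medium conditioned by HCT116, an established human colorectal carcinoma line that had been infected with lentivirus and selected with puromycin. The HCT116 cells carried either the empty vector (Vector-CM, n = 3) or the FGFBP1 sequence (FGFBP1-CM, n = 3), so that the groups differed in the donor cells' FGFBP1, a secreted protein that carries fibroblast growth factors. The study asked how the tumor cell secretome then changes stellate cell gene expression. LX-2 cells in unconditioned medium were not analysed here, and each donor genotype was represented by 1 stable line. Nothing states that the replicates were separate cultures, so p-values measure the spread between these samples, which may be technical.

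Total counts ranged from 14003780 to 18508113 per library. On the first principal component, which carried 43.5% of the variance, FGFBP1-CM replicate 1 lay at 38.1, the other FGFBP1-CM libraries at 4.73 and 4.96, and the Vector-CM libraries between -18.3 and -12.9. Values without FGFBP1-CM replicate 1 are therefore given beside the fold changes of the members, and beside those of some pathway genes named below. Of 15 hepatic stellate markers, VIM, TIMP1, SPARC and COL1A1 were abundant and 13 were tested, but DES was near 0 and LRAT, the retinol-esterifying enzyme, had 0 counts in every library, which allows up to 0.162 to 0.214 CPM. The summed level of the stellate list was 3690 to 3945 CPM in Vector-CM and 2838 to 3396 CPM in FGFBP1-CM, with 11 of 13 genes lower and 1 called, TIMP1. Of 14 colorectal epithelial markers 1 was tested, CLDN4, and the sum was 8.32 to 10.4 against 8.56 to 12.1 CPM, with CEACAM5 and TFF3 at 0. The 14 hepatocyte markers summed to 42.1 to 45.3 CPM in Vector-CM and 18.5 to 28.2 CPM in FGFBP1-CM. Of 6 tested, 4 were called lower (ALB, APOB, AFP and FGA), where 0.0658% of all tested genes were called lower. Their median log2 fold change was -2.31. The groups did not overlap, with FGFBP1-CM lower, for 6 hepatocyte and 5 stellate markers, against a background of 13.2% of tested genes. Endothelial and leukocyte markers summed to at most 16.7 and 5.84 CPM, with groups that overlapped. The part of these lists, and of FGFBP1-CM replicate 1, in the values below was not tested.

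The promoter windows of the members whose groups did not overlap with FGFBP1-CM higher are shown first, followed by that of AXIN1, because it held the most matches to EGR1, the transcription factor that the study places downstream of FGF signaling. Each window runs from 250 bases before to 50 bases after a RefSeq transcription start (GRCh38.p14), and 8 of the 10 members had 1 or more in the table. APC has 2 starts there, at chr5:112707248-112707547 and chr5:112737635-112737934, both on the plus strand. GSK3B lies at chr3:120094398-120094697 (minus strand), CTNNB1 at chr3:41199255-41199554 (plus strand) and AXIN1 at chr16:352674-352973 (minus strand). Capitals mark matches, on either strand, to the searched words named after the sequences.
APC, upstream start: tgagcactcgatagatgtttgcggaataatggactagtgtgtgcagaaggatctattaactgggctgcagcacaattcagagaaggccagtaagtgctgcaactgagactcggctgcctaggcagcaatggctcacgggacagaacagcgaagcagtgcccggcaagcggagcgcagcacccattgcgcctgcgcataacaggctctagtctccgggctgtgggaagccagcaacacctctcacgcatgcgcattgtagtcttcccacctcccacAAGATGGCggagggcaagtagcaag
APC, downstream start: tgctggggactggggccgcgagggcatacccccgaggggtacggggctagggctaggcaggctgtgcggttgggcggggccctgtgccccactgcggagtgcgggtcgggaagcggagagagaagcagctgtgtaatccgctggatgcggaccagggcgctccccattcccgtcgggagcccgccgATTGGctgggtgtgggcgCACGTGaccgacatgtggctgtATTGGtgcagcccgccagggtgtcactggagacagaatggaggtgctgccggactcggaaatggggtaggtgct
GSK3B: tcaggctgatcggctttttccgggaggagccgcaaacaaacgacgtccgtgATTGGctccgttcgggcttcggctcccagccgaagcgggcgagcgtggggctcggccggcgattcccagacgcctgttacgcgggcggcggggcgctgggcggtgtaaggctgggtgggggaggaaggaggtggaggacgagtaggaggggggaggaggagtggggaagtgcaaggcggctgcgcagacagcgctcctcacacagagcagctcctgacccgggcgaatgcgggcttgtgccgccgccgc
CTNNB1: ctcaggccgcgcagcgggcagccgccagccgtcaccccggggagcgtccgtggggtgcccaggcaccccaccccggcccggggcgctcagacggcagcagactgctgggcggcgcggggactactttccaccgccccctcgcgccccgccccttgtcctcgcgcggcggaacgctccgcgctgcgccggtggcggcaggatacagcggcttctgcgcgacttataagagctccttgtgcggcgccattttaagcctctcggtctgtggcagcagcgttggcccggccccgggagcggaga
AXIN1: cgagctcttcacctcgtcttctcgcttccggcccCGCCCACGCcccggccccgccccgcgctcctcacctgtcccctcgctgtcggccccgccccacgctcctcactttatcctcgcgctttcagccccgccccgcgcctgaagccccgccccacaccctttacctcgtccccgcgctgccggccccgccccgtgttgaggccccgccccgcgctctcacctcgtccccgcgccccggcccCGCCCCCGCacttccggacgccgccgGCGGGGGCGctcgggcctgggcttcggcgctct

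The words searched were CTTTG followed by a pair of bases that are each A or T for TCF/LEF, GCGTGGGCG and GCGGGGGCG for EGR1, CCAAT for the CCAAT box, CACGTG for the E-box and AAGATGGC for YY1, and the last 3 were picked after the windows had been read. No TCF/LEF or EGR1 word was found in the windows of APC, GSK3B or CTNNB1. The upstream APC window held 1 YY1 word, 25 bases after the start, and the downstream one held 2 CCAAT boxes, 64 and 24 bases before the start, with an E-box between them at 46 bases. GSK3B had 1 CCAAT box, and CTNNB1 had no match. AXIN1 had 3 EGR1 words, and TCF7L2 had 1 EGR1 word and, at another of its starts, 1 TCF/LEF word. Of all 35116 windows in the table, 13.8% held a TCF/LEF word, 5.77% an EGR1 word, 34.6% a CCAAT box, 7.26% an E-box and 2.89% a YY1 word. The EGR1 words share letters with the common GC box. The windows also differed in base composition, with a GC content of 56.3% and 68% at the APC starts, 69.3% for GSK3B, 74% for CTNNB1 and 78% for AXIN1, against a median of 58.7% over all windows. A match is a run of letters and not a bound site.

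APC, the large scaffold that also binds microtubules, was the member with the greatest difference between the groups. Its level was 37.2, 33.1 and 33.7 CPM (counts divided by the TMM-scaled library size) in Vector-CM replicates 1 to 3, and 68.2, 48.7 and 56.2 CPM in FGFBP1-CM replicates 1 to 3. Every FGFBP1-CM library lay above every Vector-CM library, and FGFBP1-CM replicate 1 was the highest. The means were 34.7 ± 2.25 and 57.7 ± 9.84 CPM (SD, n = 3), which is a 1.66-fold difference and a log2 fold change of 0.74 (SE 0.11). The difference placed APC at percentile 98.6 of the log2 fold changes of all 16707 tested genes. Without FGFBP1-CM replicate 1 the log2 fold change of APC was 0.60. In bulk RNA, a change in the share of cells that express a gene and a change in its RNA per cell cannot be told apart.

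APC (ENSG00000134982) spans chromosome 5, 112707498 to 112846239, on the plus strand in GENCODE 29 (GRCh38), in 20 exon blocks with 12440 exonic bases. Its counts were 667, 457 and 500 in Vector-CM and 1293, 776 and 918 in FGFBP1-CM, so counting error was small beside the difference. An annotated neighbor, AC008575.1, shares 230 of its exonic bases on the same strand and had 1 count in all 6 libraries together. The protein-coding neighbors within 500 kb, looked up after the APC values were known, did not pass the test. REEP5 and MCC were higher in every FGFBP1-CM library, with log2 fold changes of 0.14 (SE 0.06, adjusted p = 0.208, edgeR) and 0.17 (SE 0.07, adjusted p = 0.195, edgeR). SRP19 had 0.11 (SE 0.10, adjusted p = 0.548, edgeR) and DCP2 -0.16 (SE 0.13, adjusted p = 0.501, edgeR), with groups that overlapped, and EPB41L4A had 5 counts in all.

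AXIN1, the limiting scaffold of the complex in many cells, was lower where APC was higher. It had 55.9, 51.9 and 50.3 CPM in Vector-CM and 46.2, 43.7 and 48.2 CPM in FGFBP1-CM. The groups did not overlap, with means of 52.7 ± 2.90 and 46.0 ± 2.23 CPM (SD, n = 3) and a log2 fold change of -0.20 (SE 0.07), which was also -0.20 without FGFBP1-CM replicate 1. That of AXIN2, the Wnt-induced scaffold, was -0.15 (SE 0.15), and -0.27 without FGFBP1-CM replicate 1. Leaving out each library in turn gave -0.27 to -0.04. Its level was low, with 8.88, 7.38 and 7.82 CPM in Vector-CM and 8.34, 7.28 and 6.06 CPM in FGFBP1-CM, and the groups overlapped. AXIN1 (ENSG00000103126) lies on chromosome 16, 287440 to 352673, minus strand, and AXIN2 (ENSG00000168646) on chromosome 17, 65528563 to 65561647, minus strand. An annotated gene that shares 1316 exonic bases with AXIN2 had no count.

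The ratio of APC to AXIN1, both per length as deposited FPKM (fragment counts scaled for gene length and depth), put the scaffolds side by side. It was 0.403, 0.386 and 0.406 in Vector-CM and 0.895, 0.675 and 0.706 in FGFBP1-CM. The ratio stayed under 1 in all 6 libraries, so that AXIN1 was the higher of the pair in each, and its means were 0.398 ± 0.0106 and 0.759 ± 0.119 (SD, n = 3). The ratio of AXIN1 to AXIN2 was 4.57 ± 0.268 and 4.51 ± 0.89 (SD, n = 3), and the groups overlapped.

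**Figure D1:**
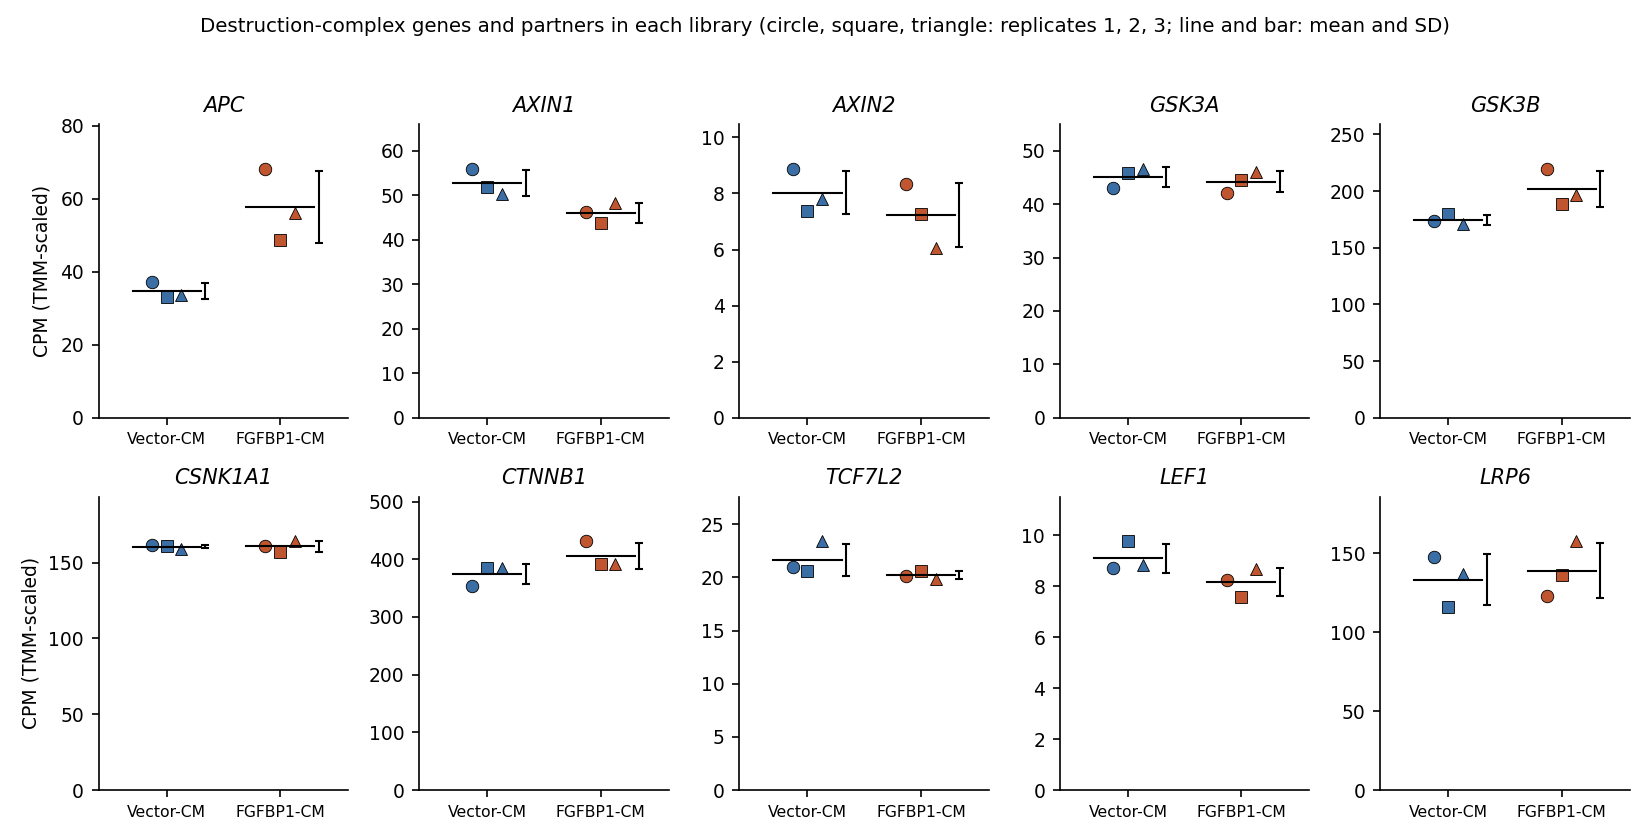
CPM on the TMM-scaled library size (vertical axes, each from 0) of the 10 members in Vector-CM (blue) and FGFBP1-CM (orange), with 1 point per library, the mean as a line and the SD as a bar (n = 3). APC, GSK3B and CTNNB1 lie higher in every FGFBP1-CM library. AXIN1 and, narrowly, TCF7L2 and LEF1 lie lower in each. FGFBP1-CM replicate 1 (circle) is the highest library for APC, GSK3B and CTNNB1.

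Among the kinases, GSK3B and GSK3A, whose proteins act largely interchangeably on beta-catenin, differed in their values. GSK3B had 173, 179 and 171 CPM in Vector-CM and 220, 189 and 196 CPM in FGFBP1-CM. All FGFBP1-CM libraries were above all Vector-CM libraries, with means of 174 ± 4.53 and 202 ± 16.0 CPM (SD, n = 3) and a log2 fold change of 0.21 (SE 0.07). Without FGFBP1-CM replicate 1 it was 0.15. GSK3A had 43.0, 45.8 and 46.6 CPM in Vector-CM and 42.1, 44.5 and 46.1 CPM in FGFBP1-CM, with groups that overlapped and a log2 fold change of -0.03 (SE 0.07), or 0.01 without FGFBP1-CM replicate 1. The FPKM ratio of GSK3B to GSK3A was 1.25 ± 0.0616 in Vector-CM and 1.48 ± 0.179 in FGFBP1-CM (SD, n = 3), without overlap. Its size depends on the gene lengths behind the deposited FPKM. These were 17871 bases for GSK3B and 5782 for GSK3A, against 8156 and 4126 in GENCODE 29.

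CSNK1A1, which encodes the kinase that primes beta-catenin for GSK-3, had nearly the same level in every library. It had 162, 161 and 159 CPM in Vector-CM and 161, 157 and 164 CPM in FGFBP1-CM, with a log2 fold change of 0.00 (SE 0.06), with or without FGFBP1-CM replicate 1. Its FPKM had the smallest spread of the members, with a coefficient of variation of 2.57% over the 6 libraries, against 32.3% for APC. An overlapping annotated gene, AC021078.1, shares 2886 exonic bases with CSNK1A1 and had 401 to 672 counts per library, so part of the CSNK1A1 reads could have been assigned elsewhere or discarded. GSK3A (ENSG00000105723) lies on chromosome 19, 42230186 to 42242625, GSK3B (ENSG00000082701) on chromosome 3, 119821323 to 120094417, and CSNK1A1 (ENSG00000113712) on chromosome 5, 149492197 to 149551552, all on the minus strand.

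CTNNB1, which encodes the substrate of the complex, was the most abundant member. It had 354, 384 and 385 CPM in Vector-CM and 431, 392 and 392 CPM in FGFBP1-CM. The groups did not overlap, but the second and the third replicates of each group lay close together, and the log2 fold change was 0.11 (SE 0.07). It was 0.07 without FGFBP1-CM replicate 1. CTNNB1 (ENSG00000168036) lies on chromosome 3, 41194741 to 41260096, plus strand. These values concern RNA, while the complex acts on the stability of the protein.

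The nuclear partners were low. TCF7L2, the TCF family member that prevails in colon epithelium, had 20.9, 20.6 and 23.4 CPM in Vector-CM and 20.1, 20.6 and 19.9 CPM in FGFBP1-CM. LEF1, itself a Wnt target in many cells, had 8.71, 9.77 and 8.83 CPM in Vector-CM and 8.23, 7.59 and 8.69 CPM in FGFBP1-CM. For both genes the groups were apart by less than 0.1 CPM, with 20.62 against 20.59 CPM for TCF7L2 and 8.71 against 8.69 CPM for LEF1. The log2 fold changes were -0.10 (SE 0.09) for TCF7L2 and -0.15 (SE 0.12) for LEF1, and without FGFBP1-CM replicate 1 they were -0.09 and -0.15. TCF7L2 (ENSG00000148737) lies on chromosome 10, 112950250 to 113167678, plus strand, and LEF1 (ENSG00000138795) on chromosome 4, 108047545 to 108168956, minus strand. Antisense genes overlap 300 exonic bases of TCF7L2 and 279 of LEF1, with at most 3 counts per library.

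LRP6 (ENSG00000070018; chromosome 12, 12116025 to 12267012, minus strand), the co-receptor that recruits AXIN, varied more within the groups than between them. It had 148, 116 and 137 CPM in Vector-CM and 123, 137 and 158 CPM in FGFBP1-CM, with a log2 fold change of 0.06 (SE 0.10). It was 0.14 without FGFBP1-CM replicate 1, and -0.04 to 0.14 when each library was left out in turn.

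Over the 10 members, 5 log2 fold changes were positive and 5 negative, with a median of -0.01, and the median of all tested genes was 0.00. The edgeR test called 1 member, APC, at an adjusted p under 0.05, where 0.12% of all tested genes were called, 0.0539% higher and 0.0658% lower. Nothing can be read from that count, because the call of APC was known when the set was chosen. The groups did not overlap for 3 members with FGFBP1-CM higher and for 3 with FGFBP1-CM lower, against a background of 12.8% and 13.2% of tested genes. Leaving out any one of the Vector-CM libraries ended that call. The log2 fold change of APC ranged from 0.60 to 0.84 when each of the 6 libraries was left out in turn.

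**Figure D2:**
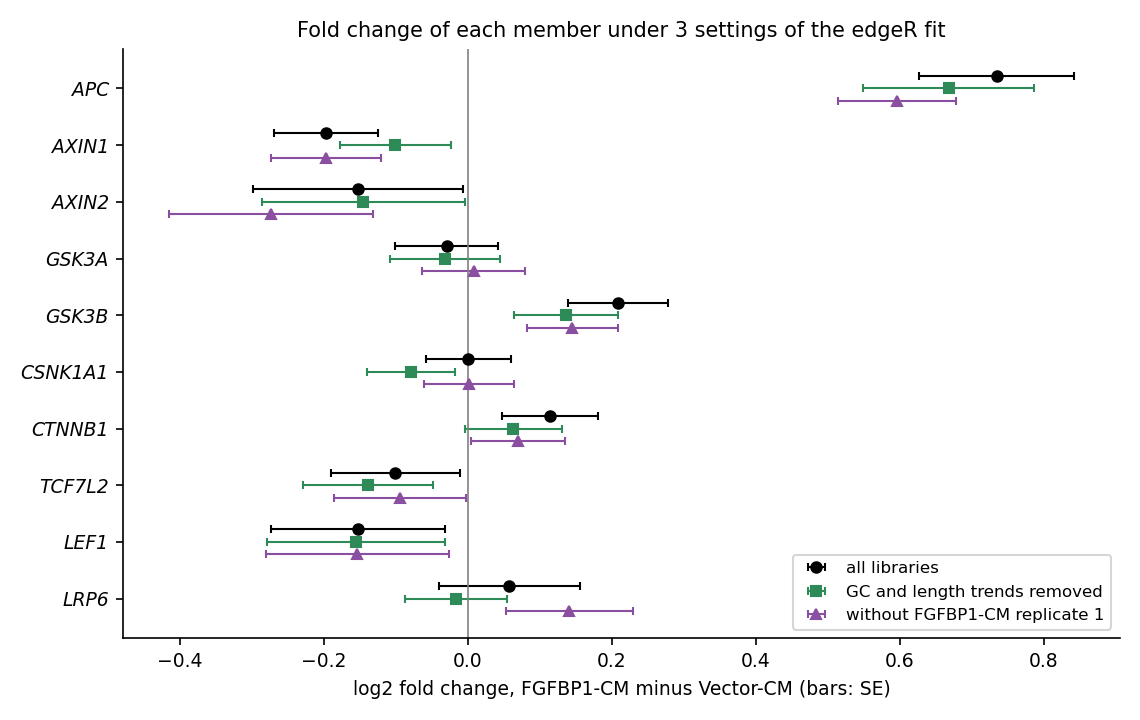
Log2 fold change of each member, FGFBP1-CM minus Vector-CM (horizontal axis), with its SE as a bar, from the edgeR fit of all libraries, the fit with GC and length trends removed, and the fit without FGFBP1-CM replicate 1. APC lies between 0.60 and 0.74 in the 3 fits, GSK3B between 0.14 and 0.21, and AXIN1 between -0.20 and -0.10.

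Across the table, log2 fold change ran with the GC content of the transcript (Spearman rho of -0.21 over 16401 genes, which are not independent). The median log2 fold change fell from 0.06 in the decile of genes with the lowest GC content to -0.09 in the decile with the highest. The members with the lowest GC content were CSNK1A1 (39.4%), APC (39.6%), LRP6 (40.2%), GSK3B (42.1%) and CTNNB1 (43.5%), and these were the 5 with a positive log2 fold change. TCF7L2 (45.8%), GSK3A (52%), LEF1 (52.1%), AXIN2 (53.1%) and AXIN1 (63.8%) had a negative one. That of CSNK1A1 was 0.00 (SE 0.06). When each library was left out in turn, CSNK1A1 (-0.01 to 0.02), LRP6 (-0.04 to 0.14) and GSK3A (-0.06 to 0.01) took either sign. With the GC and length trends removed from each library, the log2 fold change of APC was 0.67, that of GSK3B 0.14, that of CTNNB1 0.06 and that of AXIN1 -0.10. Those of CSNK1A1 and LRP6 turned to -0.08 and -0.02, which left 3 positive members and a median of -0.06.

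**Figure D3:**
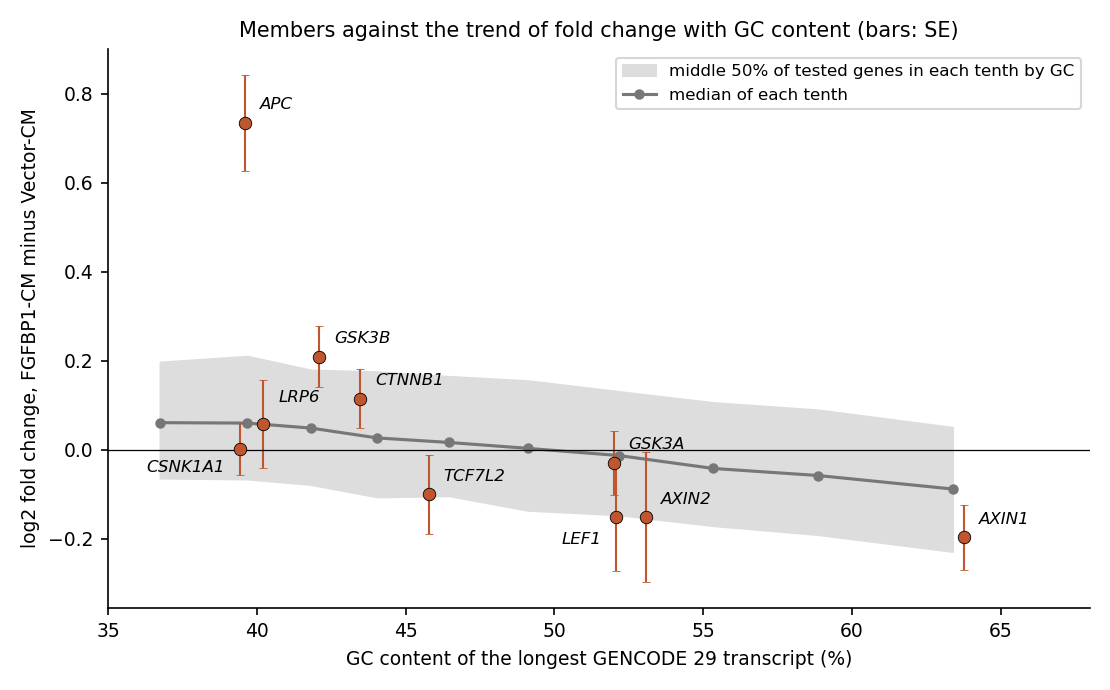
Log2 fold change, FGFBP1-CM minus Vector-CM (vertical axis), against the GC content of the longest GENCODE 29 transcript in percent (horizontal axis) for the 10 members (orange, with SE bars), over the median (line) and the middle 50% (band) of all tested genes in each decile of GC content. The line falls from 0.06 to -0.09 and APC lies at 0.74.

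Levels per length were compared as deposited FPKM over all 6 libraries. CTNNB1 was highest at 33.1 ± 2.53 FPKM (SD, n = 6), followed by CSNK1A1 at 18.8 ± 0.484, LRP6 at 13.1 ± 1.49 and GSK3B at 10.5 ± 1.19 FPKM. GSK3A had 7.71 ± 0.236, AXIN1 6.53 ± 0.534, APC 3.72 ± 1.20 and TCF7L2 3.09 ± 0.148 FPKM, and LEF1 and AXIN2 were lowest at 1.61 ± 0.123 and 1.46 ± 0.189 FPKM. Neighbors in this order whose ranges overlapped were LRP6 and GSK3B, APC and TCF7L2, and LEF1 and AXIN2. The scaffolds were thus far below their substrate in RNA, with a ratio of APC to CTNNB1 of 0.0879 ± 0.0101 in Vector-CM and 0.134 ± 0.0161 in FGFBP1-CM (SD, n = 3).

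The order of the members was the same in both groups apart from 1 pair. TCF7L2 was above APC in Vector-CM (3.17 ± 0.193 and 2.75 ± 0.2 FPKM) and below it in FGFBP1-CM (3.02 ± 0.049 and 4.69 ± 0.864 FPKM; SD, n = 3), and the ranges were separate in each group. FPKM depends on the gene length used. The length implied by the deposited values was within 1% of the GENCODE 29 exon length for 6 members, including APC, but for GSK3B it was 17871 bases against 8156. With the GENCODE 29 length, a setting added after the data were seen, GSK3B had 23.0 ± 2.61 FPKM (SD, n = 6) and came second, and 7 members kept their rank.

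**Figure D4:**
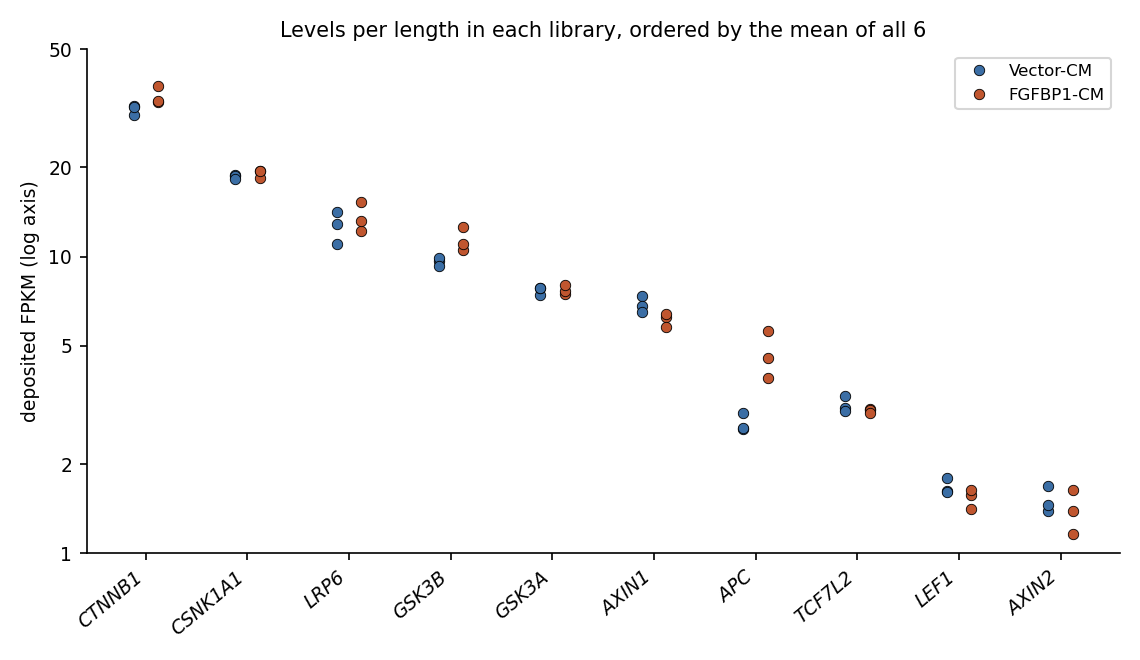
Deposited FPKM on a log axis (vertical) of the 10 members in each Vector-CM (blue) and FGFBP1-CM (orange) library, ordered from left to right by the mean of all 6. Levels run from 33.1 FPKM for CTNNB1 to 1.46 FPKM for AXIN2, and APC crosses TCF7L2 between the groups.

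The genes most like APC over the 6 libraries, by Pearson correlation of log2 CPM among 13758 named genes with a mean of at least 1 CPM, were METAP2 (r of 0.999), PSMA3 (0.997), EVI5 (0.994), ZNF181 (0.993) and RPAP2 (0.992). With 6 libraries that share the group difference such values are easily reached, and 158 genes had the same order of libraries as APC. These 5 genes were higher in every FGFBP1-CM library and highest in FGFBP1-CM replicate 1, and their transcripts had a GC content between 36.7% and 41.2%. Of the members, GSK3B came nearest (r of 0.946, rank 291) and CTNNB1 next (r of 0.747), while AXIN1, TCF7L2 and LEF1 were at -0.674, -0.659 and -0.607.

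Beyond the members, 146 genes in 10 lists covered the rest of the pathway, of which 105 were tested. No gene of the lists passed an adjusted p of 0.05 in edgeR. An unadjusted p under 0.05 was found for 32 of them, beside 3630 of all 16707 tested genes. DESeq2 called 3 (BTRC, CSNK1E and CUL1), beside 616 of all 16707. Of the 105 genes, 54 had a positive and 51 a negative log2 fold change, with a median of 0.01. The groups did not overlap for 18 genes with FGFBP1-CM higher (17.1%) and for 19 with FGFBP1-CM lower (18.1%), beside the 12.8% and 13.2% of all tested genes. The lists follow the pathway from the cell surface to the nucleus, and for each list the tested genes with the highest and the lowest log2 fold change are named. Other genes of the lists were picked after their values were seen.

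Most Wnt ligand genes were below the filter in these cells. Of 21 genes for ligands and their secretion, 9 were tested, 6 with a positive log2 fold change, and WNT3A had 0 counts in all. WNT5B and WNT5A, which chiefly signal without beta-catenin, were the highest ligands at 5.65 ± 0.340 and 3.93 ± 0.291 FPKM, and WLS, the Wnt carrier to the cell surface, had 15.4 ± 0.639 FPKM (SD, n = 6). The extremes among genes with at least 1 CPM were WNT2B at -0.18 (SE 0.20, adjusted p = 0.641, edgeR) and PORCN, the acyltransferase of Wnt proteins, at 0.11 (SE 0.10, adjusted p = 0.519, edgeR). Of 15 receptor and co-receptor genes 13 were tested, 5 positive and 8 negative, with a median of 0.00. The log2 fold change was 0.35 for FZD8 (SE 0.13, adjusted p = 0.155, edgeR) and -0.34 for FZD4 (SE 0.10, adjusted p = 0.105, edgeR), with groups that did not overlap. Without FGFBP1-CM replicate 1 FZD4 was at -0.22 and WNT2B at -0.29. LRP5, the partner of LRP6, had nearly the same level in both groups, with 42.8 ± 1.58 and 42.7 ± 0.716 CPM (SD, n = 3).

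Of 15 genes for secreted antagonists and DKK receptors 6 were tested, and SFRP1, DKK1 and DKK3 were abundant in RNA. SFRP1, which binds Wnt proteins, had 117 ± 13.9 FPKM (SD, n = 6), DKK1, which blocks LRP6, had 51.6 ± 8.27 FPKM and DKK3 had 22 ± 1.76 FPKM, while WIF1 and SOSTDC1 had no count. Of the 6 tested genes, which included the DKK receptor genes KREMEN1 and KREMEN2, 5 had a negative log2 fold change, with a median of -0.19. DKK1 was the exception, at 105 ± 5.04 CPM in Vector-CM against 125 ± 18.6 CPM in FGFBP1-CM (SD, n = 3). Its log2 fold change was 0.26 (SE 0.09, adjusted p = 0.136, edgeR), and 0.14 without FGFBP1-CM replicate 1. KREMEN2, a DKK receptor, was lowest at -0.46 (SE 0.21, adjusted p = 0.231, edgeR). Its level was low, at 2.29 ± 0.105 CPM in Vector-CM against 1.66 ± 0.166 CPM in FGFBP1-CM (SD, n = 3). DKK3, SFRP1 and FRZB were at -0.21, -0.14 and -0.26, and at -0.15, -0.03 and -0.06 without FGFBP1-CM replicate 1. Among DKK3, SFRP1 and FRZB, only DKK3 had groups that did not overlap. R-spondins act through LGR receptors to slow the turnover of Frizzled, which the ubiquitin ligases RNF43 and ZNRF3 drive. Of these genes LGR5, RSPO1, RSPO2, RSPO3 and RNF43 were below the filter, and LGR4, RSPO4 and ZNRF3 were tested. The log2 fold change of LGR4 was at -0.01 (SE 0.08, adjusted p = 0.958, edgeR) and RSPO4 at 0.09 (SE 0.18, adjusted p = 0.811, edgeR).

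Downstream of the receptors, 8 of 11 tested genes for Dishevelled and other casein kinases had a negative log2 fold change, with a median of -0.09. CSNK1E was lowest, at 145 ± 3.10 CPM in Vector-CM against 121 ± 8.71 CPM in FGFBP1-CM (SD, n = 3). Its log2 fold change was -0.26 (SE 0.07, adjusted p = 0.0767, edgeR). FRAT1, which binds GSK-3 and draws it from AXIN, was highest at 0.76 (SE 0.28, adjusted p = 0.15, edgeR), from 1.32 ± 0.237 to 2.21 ± 0.715 CPM (SD, n = 3), with groups that overlapped. Without FGFBP1-CM replicate 1 it was 0.48.

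The list nearest to the members held the other parts of the complex and of beta-catenin ubiquitination, with 21 tested genes, 15 positive and 6 negative, and a median of 0.05, or 0.00 with GC and length trends removed. CUL1, the cullin scaffold of the SCF ubiquitin ligase, had 32.9, 33.1 and 30.7 CPM in Vector-CM and 51.6, 41.5 and 43.8 CPM in FGFBP1-CM. All FGFBP1-CM libraries were higher, yet the log2 fold change of 0.50 (SE 0.09) missed the threshold narrowly (adjusted p = 0.0557, edgeR). Without FGFBP1-CM replicate 1 the log2 fold change of CUL1 was 0.41. BTRC, the F-box protein that recognizes phosphorylated beta-catenin in that ligase, had 38.5, 39.1 and 37.1 CPM against 59.0, 42.0 and 47.5 CPM, and its log2 fold change was 0.38 (SE 0.11, adjusted p = 0.0877, edgeR). BTRC lay above every Vector-CM library in each FGFBP1-CM library, and without FGFBP1-CM replicate 1 its log2 fold change was 0.23. The other subunits were at 0.06 for SKP1 (adjusted p = 0.611, edgeR) and -0.09 for RBX1 (adjusted p = 0.474, edgeR). The lowest gene of the list was PPP2R5D, a regulatory subunit of the phosphatase PP2A, at -0.17 (SE 0.07, adjusted p = 0.165, edgeR). APC2, the paralog of APC, had a low level of 2.94 ± 0.227 CPM in Vector-CM against 3.48 ± 0.307 CPM in FGFBP1-CM (SD, n = 3). Its log2 fold change was 0.25 (SE 0.18, adjusted p = 0.442, edgeR).

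All 16 nuclear partners of beta-catenin were tested, 7 positive and 9 negative, with a median of -0.04. The acetyltransferase gene EP300 was highest at 0.22 (SE 0.08, adjusted p = 0.128, edgeR) and CTNNBIP1, an inhibitor of the binding of beta-catenin to TCF, lowest at -0.30 (SE 0.10, adjusted p = 0.121, edgeR), and neither overlapped between groups. EP300 was at 0.14 without FGFBP1-CM replicate 1. Of 18 Wnt target genes 11 were tested, 8 with a positive log2 fold change and a median of 0.07. BMP4 was highest at 0.42 (SE 0.14, adjusted p = 0.129, edgeR), or 0.25 without FGFBP1-CM replicate 1, and TCF7 lowest at -0.22 (SE 0.16, adjusted p = 0.434, edgeR), or -0.13 without that library. Among the target genes that are specific to Wnt in most tissues, NKD1 was low, at 2.46 ± 0.734 and 2.32 ± 0.489 CPM (SD, n = 3). LGR5, NOTUM, ASCL2 and APCDD1 were below the filter. Of the abundant ones, FOSL1, CCND1 and CD44 answer to other signals as well. They had log2 fold changes of 0.05 (adjusted p = 0.707, edgeR), 0.20 (adjusted p = 0.324, edgeR) and -0.04 (adjusted p = 0.743, edgeR). Without FGFBP1-CM replicate 1 these were 0.01, 0.07 and -0.07.

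Beta-catenin also binds cadherins at adherens junctions. Of 13 such cadherin and catenin genes 7 were tested, 6 with a negative log2 fold change and a median of -0.18. CDH11 was lowest at -0.43 (SE 0.17, adjusted p = 0.176, edgeR) and CDH3 highest at 0.08 (SE 0.29, adjusted p = 0.902, edgeR), both with groups that overlapped. CDH3 ranged from -0.13 to 0.40 when each library was left out in turn. CDH11 was at -0.28 without Vector-CM replicate 3 and at -0.34 without FGFBP1-CM replicate 1. The groups did not overlap, with FGFBP1-CM lower, for 4 of the 7 (CTNNA1, CTNND1, JUP and VCL), beside 13.2% of all tested genes. JUP, the plakoglobin gene and closest relative of CTNNB1, was at -0.25 (SE 0.07, adjusted p = 0.0842, edgeR). Of the 12 cytoskeletal partners of APC, all tested, 8 were positive and 4 negative, with a median of 0.03. MCC was highest at 0.17 and ARHGEF4, whose protein APC activates, lowest at -0.42 (SE 0.17, adjusted p = 0.172, edgeR). ARHGEF4 was at -0.23 without FGFBP1-CM replicate 1 and at -0.24 without Vector-CM replicate 1. MAPRE1, which encodes the microtubule plus-end protein EB1, was at 352 ± 24.7 and 352 ± 8.31 CPM (SD, n = 3).

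**Figure D5:**
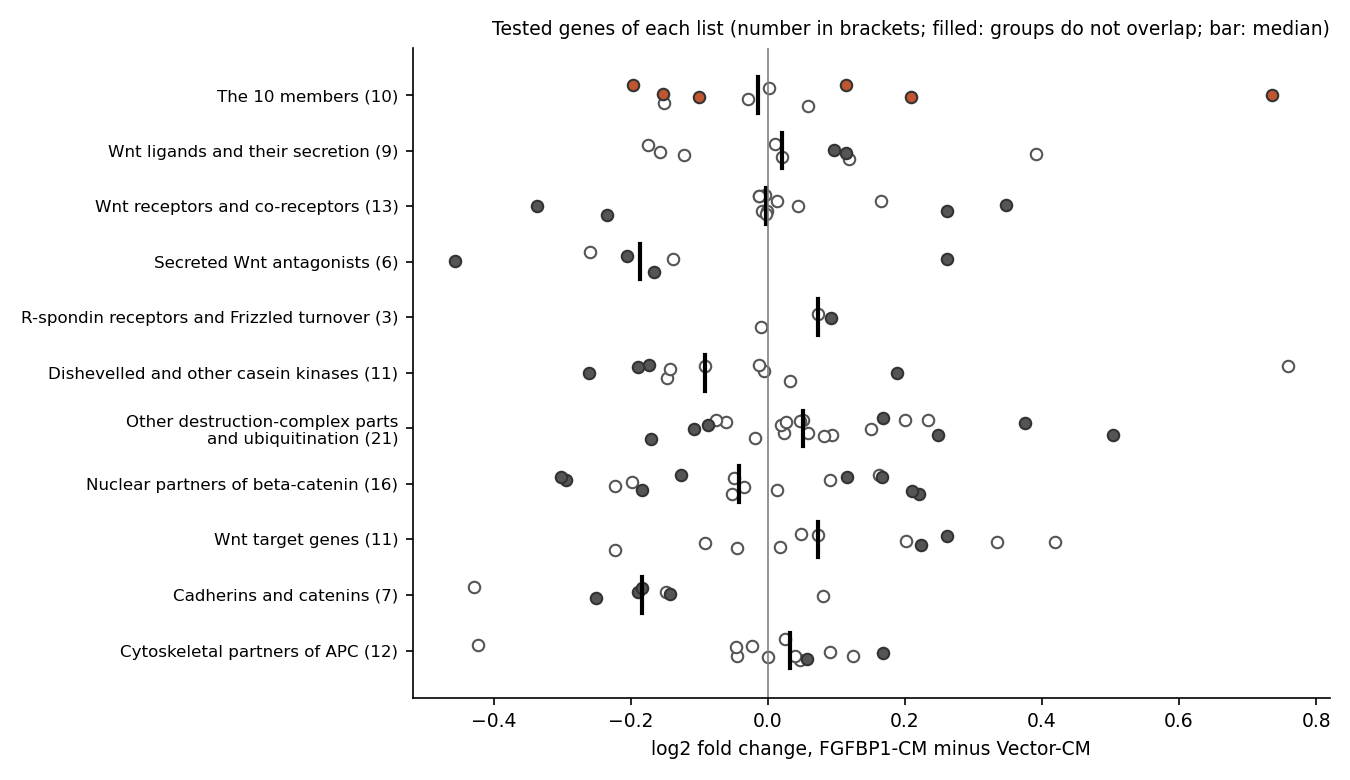
Log2 fold change, FGFBP1-CM minus Vector-CM (horizontal axis), of the 10 members (orange) and of the tested genes of each of 10 pathway lists (grey), with the median of each list as a bar and filled points where the groups do not overlap in CPM. The medians lie between -0.19 and 0.07, and among points whose groups do not overlap APC at 0.74 and CUL1 at 0.50 lie farthest to the right.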

How the data were processed

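RNA was extracted with TRIzol, depleted of ribosomal RNA and made into NEBNext Ultra II libraries, and the methods also mention poly(A) selection. The authors deposited the raw count of each gene and its FPKM in 1 table. The submitters' processing notes name HISAT2 2.0.5, featureCounts 1.5.0-p3 and the build hg18. The counting annotation and strandedness are not given in the sources used here, and unstranded reads of overlapping or antisense genes cannot be told apart. GENCODE 29 (GRCh38) held 96.3% of the Ensembl identifiers and supplied coordinates, GC content and transcript length, and promoter windows came from RefSeq. Rows with another identifier (175) held 0.0769% of counts.

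Counts were filtered with filterByExpr, scaled by TMM and compared with the quasi-likelihood test of edgeR 4.0.16 in R 4.3.3, with Benjamini-Hochberg adjustment over 16707 genes. The SE is the log2 fold change divided by the square root of F. Named genes were the members, the pathway genes past the threshold, the highest and lowest tested gene of each list with at least 1 CPM, and the 5 most like APC. The members and lists were chosen with earlier results of these data known. Alternatives used limma 3.58.1 and DESeq2 1.42.0. The procedures were tested on simulated data. With 3 against 3 libraries an exact permutation test cannot go below 0.1, so none was used. No libraries agreed within sampling noise, and none were merged. Floors cover counting error only.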

Additional observations from a re-analysis of the deposited data

How the results depend on the processing

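Against 20 called genes, 1 member (APC) and 0 pathway genes, RLE scaling gave 38 genes and 1 pathway gene, no filter on low counts 1382 and 9, a mean of at least 1 CPM 11 genes, DESeq2 616 and 3, and limma on log2(FPKM + 1) or log2(FPKM + 0.1) 1 gene and 0 members each. Without the filter edgeR took infinite prior degrees of freedom, so all genes shared 1 spread trend. GC and length correction gave 123 genes and 1 pathway gene, in 2 steps 48 and 1, and as a local quadratic 117 and 1 (both chosen after seeing the data). The cause of these differences was not tested, also for the fit without the filter. Replicate numbers did not pair the libraries (correlations of -0.094, -0.0265 and 0.111), and the replicate block gave 90 genes and 1 pathway gene, or 163 and 1 with GC and length correction.

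Leaving out 1 library gave 4 to 883 genes, 0 to 1 members and 0 to 5 pathway genes. Without Vector-CM replicates 1, 2 and 3 there were 6, 4 and 4 genes and APC was lost, and without FGFBP1-CM replicates 1, 2 and 3 there were 72, 883 and 402. The log2 fold change of APC was 0.59 to 0.84 over 18 alternatives. The pathway gene called was CUL1 in each fit with 1, FZD4, JUP, BMP4 and BTRC joined it without FGFBP1-CM replicate 2, and CSNK1E without FGFBP1-CM replicate 3. LGR4 turned to 0.0241 with library size only, 0.0016 with no filter, and 0.0184 and 0.0217 in limma, and ranged from -0.0471 to 0.0424 across fits without 1 library, as CDH3 did from -0.127 to 0.3999. Of 180 values for members, 10 moved by more than the replicate spread, 3 for AXIN1 and 7 for CSNK1A1, and 16 changed sign. Of 336 values for named pathway genes, 20 became called. The order of levels did not move past the limit set. For the genes most like APC, the check by Spearman correlation looked only at the same 5. It could not set them apart among the 158 genes with the same order of libraries as APC.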
